A study of Mus musculus with 6 samples.

Results

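The genes described here set whether a cell leaves G1 and starts to copy its DNA: the D-type cyclins Ccnd1, Ccnd2 and Ccnd3, the CDK inhibitors Cdkn1a, Cdkn1b, Cdkn2a, Cdkn2b and Cdkn2c, the retinoblastoma gene Rb1, and Myc. They were listed by name, and each was read from the probe set that carries its symbol alone in the platform annotation. Where there were several such probe sets, the one with the highest mean over all arrays was taken. All 10 genes were measured, out of 22180 genes on the arrays.

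The samples were fibroblast-like synoviocytes, the connective tissue cells that line a joint, grown from knee synovium of C57BL6 mice and used at passages 4 to 8. The Mock group (3 arrays) had received an adenovirus without an insert, and the Ad-Epas1 group (3 arrays) an adenovirus carrying Epas1, which encodes the oxygen-regulated transcription factor HIF-2alpha. Both viruses were given at a multiplicity of infection of 800 for 2 h, and the cells were then kept for 24 h. The labels name neither the promoter that drives Epas1 in the virus nor separate animals or cultures behind the replicates. The p-values therefore cover only the spread among these samples, which may be technical. Each array is named by its group and replicate number (Mock 1, Ad-Epas1 3). The comparison asks how these genes differ when Epas1 is delivered by a virus.

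As background, mitogens raise the D-type cyclins, which bind the kinases CDK4 and CDK6. The resulting complexes phosphorylate the retinoblastoma protein and its relatives, which releases E2F transcription factors and with them the genes of DNA synthesis. The INK4 inhibitors (from Cdkn2a, Cdkn2b and Cdkn2c) bind CDK4 and CDK6, and the Cip/Kip inhibitors (from Cdkn1a and Cdkn1b) chiefly restrain CDK2 complexes. Myc encodes a transcription factor that promotes growth and cell cycle entry. Overgrowth of synoviocytes is a feature of inflamed joints.

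Values are log2 expression values after RMA, a standard background correction, quantile normalization and probe summary for Affymetrix arrays. Gene tests used limma over all 22180 genes with Benjamini-Hochberg adjustment, and a gene was called at an adjusted p under 0.05. The delivered Epas1 stood at 8.67, 8.71 and 8.51 on Mock 1, 2 and 3 and at 13.14, 13.15 and 13.11 on Ad-Epas1 1, 2 and 3. The array medians lay between 6.77 and 6.84. All 10 genes lay well above a scale for unexpressed genes: their lowest mean was 8.11, while the 95th percentile of 1394 olfactory and vomeronasal receptor genes was 6.62.

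The arrays also carried macrophage transcripts, although the labels describe the cells as over 90% positive for the fibroblast antigen CD90 and under 1% positive for the macrophage antigen CD14. The mean level of 16 macrophage markers lay between 10.57 and 10.85 on the Mock arrays. It was 10.43 and 10.26 on Ad-Epas1 1 and 2 and 7.22 on Ad-Epas1 3. On that array Adgre1, a macrophage surface receptor, stood at 5.89 and Lyz2, lysozyme, at 7.15, against 11.68 to 12.66 and 12.75 to 12.94 on the others. Cd14 itself stood at 9.99 to 10.42 in Mock, and at 11.92, 11.40 and 8.62 on Ad-Epas1 1, 2 and 3. Not every marker was lower on Ad-Epas1 3. Cx3cr1 stood at 8.03, 8.12 and 8.19 on Ad-Epas1 1, 2 and 3, and Cd163, low on all arrays, at 6.19, 6.09 and 6.29. These markers were named after their values were seen. Among the 16, 4 fell and 12 did not pass, and without that array 5 fell and 2 rose. Of 11 fibroblast markers, 1 rose and 3 fell (6 fell without that array). Their mean level lay between 11.99 and 12.03 in Mock and at 11.46, 11.55 and 11.92 on Ad-Epas1 1, 2 and 3. Of 5 mural cell markers, 1 fell (2 without that array), and none of 5 endothelial or 4 T cell markers passed, although 2 endothelial markers rose without Ad-Epas1 3. Across all genes 9.75% were called lower and 6.57% higher, and without Ad-Epas1 3 24.3% were called in either direction. Lists of 4 or 5 genes are too short to be set against such shares. In such bulk samples fewer cells of a type and less RNA per cell cannot be told apart. Results that rest on Ad-Epas1 3 are given with and without it.

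Of the 10 genes, 4 fell (Ccnd1, Ccnd2, Ccnd3 and Myc), 2 rose (Cdkn1a and Cdkn1b) and 4 did not pass (Cdkn2a, Cdkn2b, Cdkn2c and Rb1). Across all genes 16.3% were called, 9.75% as lower and 6.57% as higher in Ad-Epas1, against 6 of the 10. Those shares include genes of low level. With only genes above the median level tested, 3558 of 11090 genes were called, 2180 as lower and 1378 as higher. In that fit 7 of the 10 were called, of which 5 fell and 2 rose. The shares over all genes given beside the lists below are therefore low for expressed genes, and overstate any excess in those lists. The median log2 fold change of the 10 was -0.29 and that of all genes 0.05. For all 10 genes the 3 Ad-Epas1 arrays did not overlap the 3 Mock arrays, which held for 39.7% of all genes. Without Ad-Epas1 3, 7 of the 10 were called (5 fell and 2 rose), against 24.3% of all genes. That array was the Ad-Epas1 array nearest the Mock mean for 7 of the 10 genes and the farthest from it for 3. The calls of Ccnd3, Myc, Cdkn1a and Cdkn1b depended on the arrays entered: 2 genes (Ccnd1 and Ccnd2) passed without Mock 2, Mock 3 or Ad-Epas1 2, and 3 (with Cdkn1a) without Mock 1. Over all genes, 1187, 1181 and 1512 were called without Mock 2, Mock 3 and Ad-Epas1 2, and 2790 without Mock 1, against 3620. Called lower were 762, 763, 925 and 1737 in the same order, against 2162, and 1352 without Ad-Epas1 1. The counts of the lists below with an array left out stand beside these numbers.

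**Figure D1:**
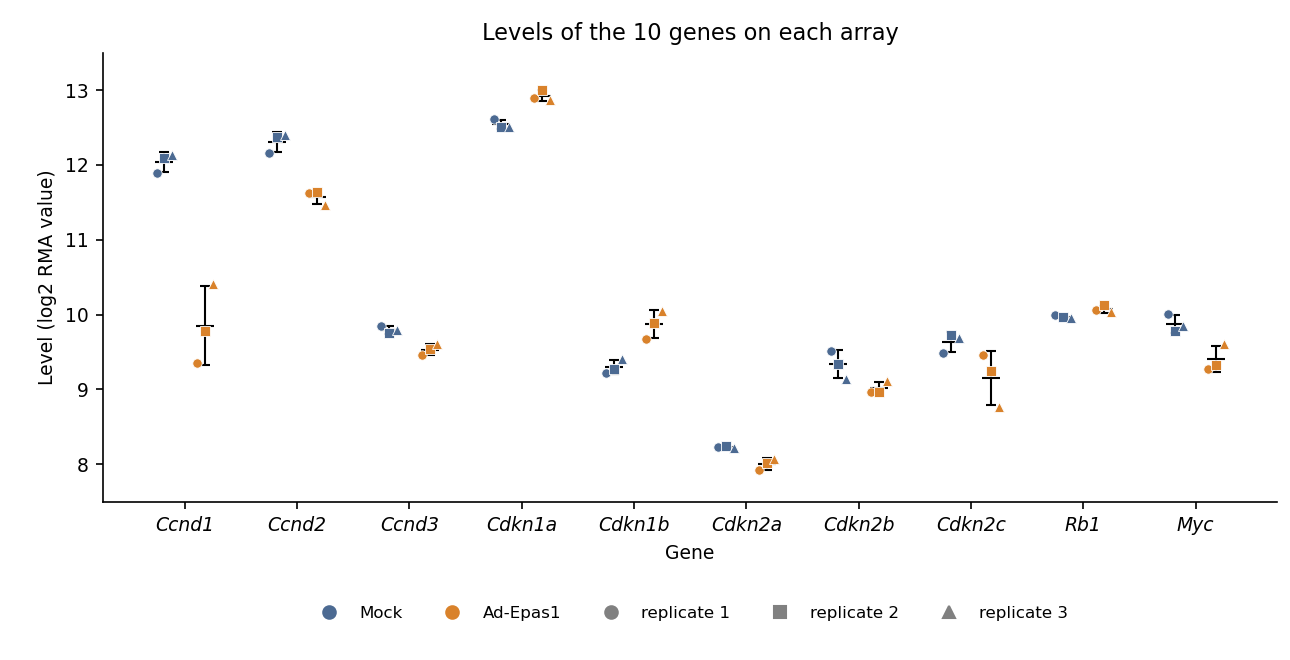
Level (log2 RMA value) of the 10 genes on each of the 6 arrays, blue for Mock and orange for Ad-Epas1, with the shape giving the replicate number and black bars the mean and SD of 3 arrays. Ccnd1 shows the widest gap, from 12.04 in Mock to 9.85 in Ad-Epas1, and the groups are separate for each of the 10 genes.

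Ccnd1, which encodes cyclin D1, had the largest change of the 10. It stood at 11.89, 12.09 and 12.14 on Mock 1, 2 and 3 and at 9.36, 9.78 and 10.41 on Ad-Epas1 1, 2 and 3. Every Ad-Epas1 array lay below every Mock array, and the Ad-Epas1 arrays were spread more widely, with the array low in macrophage transcripts the highest of them. The means were 12.04 ± 0.13 in Mock and 9.85 ± 0.53 in Ad-Epas1 (SD, n = 3 each). Ccnd1 thus fell 4.57-fold, a log2 fold change of -2.19 (SE 0.25, limma adjusted p = 0.0035). With 1 array left out at a time the change ran from -2.47 (without Ad-Epas1 3) to -1.95 (without Ad-Epas1 1), and the call held each time (adjusted p up to 0.025).

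Ccnd2, which encodes cyclin D2, fell as well, by less than Ccnd1. Its levels were 12.16, 12.37 and 12.41 on the Mock arrays and 11.62, 11.63 and 11.46 on Ad-Epas1 1, 2 and 3. The Ad-Epas1 arrays lay close together and all below Mock. The log2 fold change was -0.74 (SE 0.09, limma adjusted p = 0.0047), or 1.67-fold lower. It ran from -0.82 to -0.69 with 1 array left out, with an adjusted p up to 0.032.

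Ccnd3, which encodes cyclin D3, changed the least of the D-type cyclins. It stood at 9.85, 9.75 and 9.79 in Mock and at 9.46, 9.53 and 9.60 in Ad-Epas1, replicates 1, 2 and 3 in turn. The groups were separate but close. The log2 fold change was -0.27 (SE 0.07, limma adjusted p = 0.048), at the edge of the threshold. The call ended with another quantile step (adjusted p = 0.084), with arrays centred on their medians (0.062), and without any array other than Ad-Epas1 3 (up to 0.15).

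The D-type cyclins moved by unequal amounts on the same arrays. The difference of Ccnd1 minus Ccnd2 was -0.27 on each of the 3 Mock arrays to 2 decimals, and -2.26, -1.85 and -1.06 on Ad-Epas1 1, 2 and 3. This within-array difference therefore changed by -1.45, and that of Ccnd1 minus Ccnd3 by -1.93 and of Ccnd2 minus Ccnd3 by -0.47. For each of the 3 differences the groups were separate. The exact two-sided permutation p was 0.1 for each, the smallest that 3 against 3 arrays allow (0.17 after adjustment over 5 pairs). Since such a difference sets different probe sets against each other, its size on an array does not say which gene is more abundant, and the comparison is of its change between groups.

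**Figure D2:**
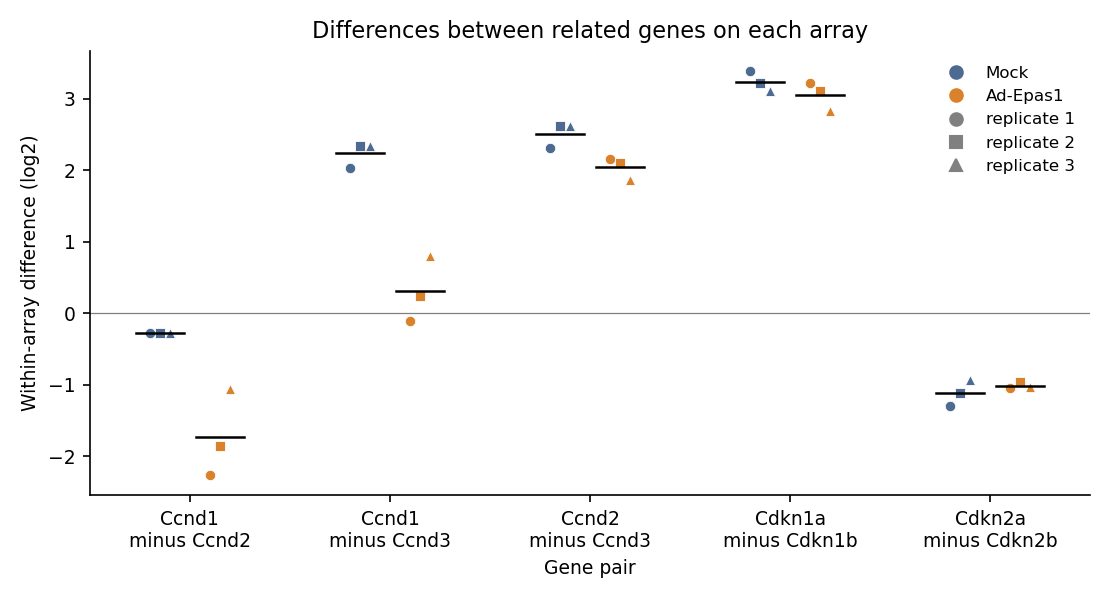
Within-array difference in log2 level for 5 pairs of related genes, blue for Mock and orange for Ad-Epas1, the shape giving the replicate number and the black line the mean of 3 arrays. The 3 pairs of D-type cyclins have lower values on every Ad-Epas1 array, whereas the groups overlap for Cdkn1a minus Cdkn1b and for Cdkn2a minus Cdkn2b.

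Cdkn1a, which encodes p21 and is a known target of p53, rose. It stood at 12.61, 12.50 and 12.51 on Mock 1, 2 and 3 and at 12.89, 13.01 and 12.87 on Ad-Epas1 1, 2 and 3. The groups were separate and each was tight. The log2 fold change was 0.38 (SE 0.07, limma adjusted p = 0.017), or 1.301-fold. The call ended when Mock 2, Mock 3 or Ad-Epas1 2 was left out, with adjusted p-values up to 0.082, while the change stayed between 0.34 and 0.41.

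Cdkn1b, which encodes p27, a keeper of quiescence, rose 1.48-fold. Its levels were 9.22, 9.28 and 9.40 in Mock and 9.67, 9.89 and 10.04 in Ad-Epas1, replicates 1, 2 and 3 in turn. The array low in macrophage transcripts was the highest of the 6. The log2 fold change was 0.57 (SE 0.11, limma adjusted p = 0.018), and 0.48 without that array (0.015). The call ended without any 1 of the Mock arrays or without Ad-Epas1 2 (adjusted p up to 0.079). The within-array difference of Cdkn1a minus Cdkn1b changed by -0.19, with overlapping groups (exact permutation p = 0.4).

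The promoters of these genes are shown because the delivered protein is a transcription factor and members of the family moved in opposite directions. RefSeq's table (GRCm38.p6) held promoter windows for 6 of the 10 genes, 10 windows in all. Those of Ccnd1, Ccnd2, Rb1 and Myc are not analysed here. The printed windows are the 250 bases before a start of Cdkn1a (chr17:29093519-29093768, plus strand), of Cdkn1b (chr6:134920151-134920400, plus strand) and of Ccnd3 (chr17:47593217-47593466, plus strand), 5′ to 3′. The capitals mark matches to the core of the hypoxia response element, searched as ACGTG and GCGTG on both strands, so that CACGC is GCGTG on the other strand.
Cdkn1a: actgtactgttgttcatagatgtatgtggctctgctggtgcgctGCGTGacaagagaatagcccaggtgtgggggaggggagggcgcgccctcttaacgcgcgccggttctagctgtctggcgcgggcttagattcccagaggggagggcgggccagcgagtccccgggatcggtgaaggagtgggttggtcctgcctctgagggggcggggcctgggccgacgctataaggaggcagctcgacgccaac
Cdkn1b: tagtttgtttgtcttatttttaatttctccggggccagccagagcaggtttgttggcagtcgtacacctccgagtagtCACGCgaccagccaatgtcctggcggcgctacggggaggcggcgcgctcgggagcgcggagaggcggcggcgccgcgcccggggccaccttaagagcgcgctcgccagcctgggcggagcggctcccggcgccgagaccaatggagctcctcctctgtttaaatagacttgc
Ccnd3: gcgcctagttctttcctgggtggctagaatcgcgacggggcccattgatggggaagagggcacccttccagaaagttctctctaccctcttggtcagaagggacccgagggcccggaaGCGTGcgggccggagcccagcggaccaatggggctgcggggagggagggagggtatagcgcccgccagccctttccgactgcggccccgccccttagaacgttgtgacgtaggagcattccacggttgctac

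Each of the 3 printed windows holds 1 GCGTG match, that of the falling Ccnd3 as well as those of the rising Cdkn1a and Cdkn1b. The other windows of Cdkn1a and Ccnd3, at their outer starts, hold neither letter string. Of all 10 windows of these genes, 7 hold at least 1 of the strings, against 38.6% of all 32851 windows of the same length (28.2% for GCGTG and 16.6% for ACGTG). The printed windows are 64.8%, 64.4% and 64.8% G and C, against a median of 52.4% over all windows, and the part of base composition was not tested. The E-box CACGTG, which Myc binds and which contains ACGTG, is in none of the 10, against 6.02% of all windows. A site for E2F, searched as TTTGGCGC, TTTCCCGC or TTTCGCGC on both strands, is in 1 of the 10 (the outer start of Cdkn2a), against 1.53%. Such matches describe the letters alone.

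None of the INK4 inhibitors passed the test. Cdkn2a, which encodes p16 and, from another start and reading frame, Arf, stood at 8.22, 8.24 and 8.22 in Mock and at 7.92, 8.01 and 8.08 in Ad-Epas1. The difference was -0.22 (95% interval -0.39 to -0.06, limma adjusted p = 0.072). The sources do not say which of these transcripts its probe set reads. Without Ad-Epas1 3 Cdkn2a was at -0.26 and was called (0.041), and with another quantile step it was at -0.08 (0.52).

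Cdkn2b, the neighbouring gene, encodes p15, which is known to respond to TGF-beta. Its levels were 9.52, 9.35 and 9.14 on Mock 1, 2 and 3 and 8.97, 8.97 and 9.11 on Ad-Epas1 1, 2 and 3, so that Mock 3 and Ad-Epas1 3 nearly met. The difference was -0.32 (95% interval -0.58 to -0.06, limma adjusted p = 0.094). The within-array difference of Cdkn2a minus Cdkn2b changed by 0.10, with overlapping groups (exact permutation p = 0.5).

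Cdkn2c, which encodes p18, stood at 9.49, 9.73 and 9.68 in Mock and at 9.46, 9.24 and 8.76 in Ad-Epas1. Mock 1 and Ad-Epas1 1 were nearly equal, and the array low in macrophage transcripts was the lowest. The difference was -0.48 (95% interval -0.91 to -0.05, limma adjusted p = 0.12), and -0.28 without that array (0.11). The part of macrophage RNA in this value was not tested.

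Rb1 encodes the pocket protein that the cyclin D kinases phosphorylate. It stood at 9.998, 9.974 and 9.949 in Mock and at 10.056, 10.122 and 10.030 in Ad-Epas1. The arrays differed little, and the difference was 0.10 (95% interval -0.06 to 0.25, limma adjusted p = 0.34). A dimmer probe set of Rb1 lay near 4.8, within the range of unexpressed genes, with a difference of -0.08. Another 2 probe sets name Rb1 together with Lpar6, a receptor gene that lies inside the Rb1 gene, and differed by -0.18 and -0.06. None of these 3 probe sets passed over all probe sets (adjusted p of 0.51 to 0.72). The array does not measure phosphorylation.

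Myc stood at 10.01, 9.78 and 9.85 on Mock 1, 2 and 3 and at 9.28, 9.33 and 9.61 on Ad-Epas1 1, 2 and 3. All Ad-Epas1 arrays were lower than Mock, with the array low in macrophage transcripts closest to it. Myc fell 1.39-fold, a log2 fold change of -0.47 (SE 0.11, limma adjusted p = 0.034). The change was -0.57 without Ad-Epas1 3 (0.0059). The call ended without any of the other arrays (adjusted p up to 0.11) and with another quantile step (0.053).

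**Figure D3:**
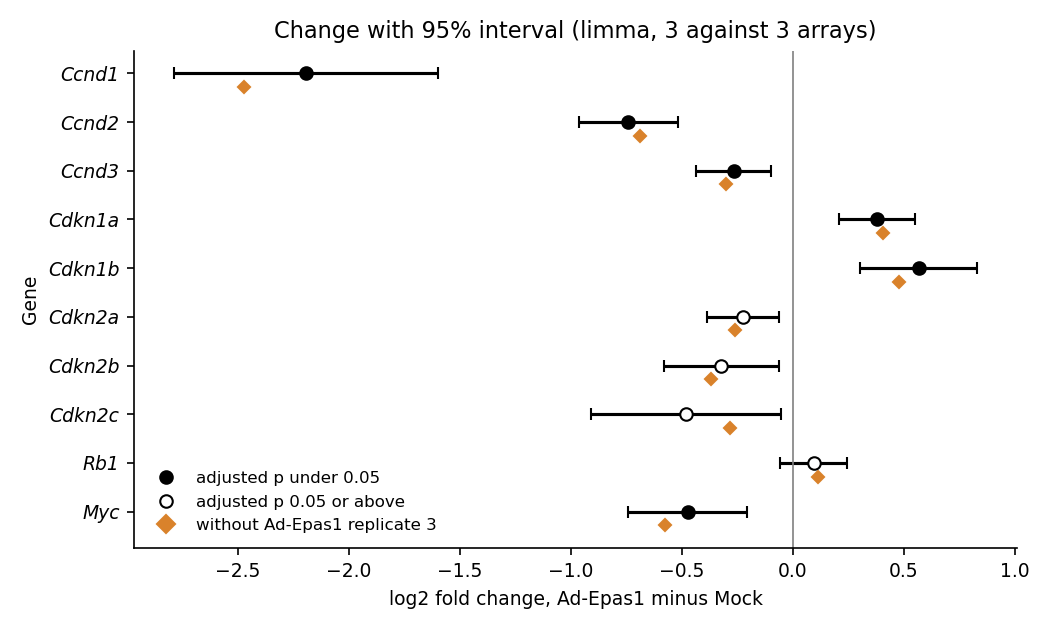
The log2 fold change of each of the 10 genes (Ad-Epas1 minus Mock) with its 95% interval from limma, filled where the adjusted p was under 0.05, and in orange the value without Ad-Epas1 3. Ccnd1 lies farthest from 0 at -2.19, Cdkn1a and Cdkn1b are the called rises, and leaving out that array turns no direction.

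Around these genes stand the kinases and later cyclins that the D-type cyclins work with. Of 8 measured partner kinases and E-type cyclins, 3 fell, none rose and 5 did not pass (median -0.27), where 9.75% of all genes were called lower. With only genes above the median level, 3 of the 8 fell, against 2180 of 11090 genes. Ccne1, cyclin E1, which activates CDK2 after the D-type cyclins, fell by 0.56 (limma adjusted p = 0.012), Ccnh, a subunit of the CDK-activating kinase, by 0.55 (0.042) and Cdk4 by 0.31 (0.029). Cdk6 stood at 10.32, 10.10 and 10.11 in Mock and at 9.49, 9.09 and 7.62 in Ad-Epas1. Its difference was -1.44 (95% interval -2.50 to -0.38, adjusted p = 0.073), and without Ad-Epas1 3, the array low in macrophage transcripts, it was -0.89 and was called (0.0053). The part of macrophage RNA in this value was not tested. Cdk2 differed by 0.06 (95% interval -0.18 to 0.31, adjusted p = 0.70). Ccne1, Ccnh and Cdk4 each lost the call without some arrays (adjusted p up to 0.062, 0.14 and 0.12). Without Ad-Epas1 3 there were 5 falls in this list, where 3100 of 22180 genes fell. Ccnh also did not pass with another quantile step or with arrays centred on their medians, nor Cdk4 with the replicate number as a block. Without Mock 2 or Mock 3 the list had 0 falls, and without Ad-Epas1 2 there was 1.

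The other inhibitors did not pass. Cdkn1c, which encodes p57, differed by 0.15 (95% interval -0.06 to 0.35, adjusted p = 0.27), and Cdkn2d, which encodes p19, by -0.40 (95% interval -0.66 to -0.14, adjusted p = 0.0504). Both relatives of Rb1 fell, so that 2 of these 4 genes were called lower, where 9.75% of all genes were. With only genes above the median level, 3 of the 4 fell, where 2180 of 11090 genes did. A list of 4 genes is too short to be set against such shares, and these counts are no result about the list. Rbl1, which encodes p107, fell by 0.46 (limma adjusted p = 0.021) and Rbl2, which encodes p130, the pocket protein of quiescent cells, by 0.59 (0.035). Their calls ended without several arrays (adjusted p up to 0.092 and 0.12), with neither passing without Mock 2, Mock 3 or Ad-Epas1 2. Rbl1 also did not pass with the replicate number as a block, nor Rbl2 with another quantile step. Rbl2 stood at 8.94 and 9.04 on Ad-Epas1 1 and 2 and at 9.48 on Ad-Epas1 3.

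Among the E2F factors and their DP partners, 5 of 10 fell, against 9.75% of all genes, none rose and 5 did not pass (median -0.35). The fit on genes above the median level had 6 of the 10 as falls, against 2180 of 11090 genes. E2f8 and E2f7, repressors that are themselves made late in G1 and S phase, fell by 1.60 (limma adjusted p = 5.6e-04) and 1.10 (0.020). The activators E2f2 and E2f1 fell by 0.60 (0.0075) and 0.36 (0.014), and the partner gene Tfdp2 by 0.67 (0.015). The activator E2f3 differed by -0.24 (95% interval -0.40 to -0.09, adjusted p = 0.052). The largely repressive E2f4, E2f5 and E2f6 differed by -0.02, 0.06 and -0.19 (adjusted p of 0.87, 0.71 and 0.24). E2f7 and Tfdp2 were no longer called when Mock 2 or Mock 3, or when Ad-Epas1 1 or 2, was left out (adjusted p up to 0.087 and 0.070). E2f1 was no longer called when Mock 2 or Mock 3 was left out (adjusted p up to 0.073). The list had 2 falls without Mock 2 or Mock 3 and 3 without Ad-Epas1 1 or Ad-Epas1 2. Without Ad-Epas1 3 it had 6, where 3100 of 22180 genes fell.

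Of 19 measured E2F targets, 13 were called lower, against 9.75% of all genes, and 6 were not called, with a median of -0.89. The fit on genes above the median level held 18 of them, and 14 fell, against 2180 of 11090 genes. Without Ad-Epas1 3, 14 fell, where 3100 of 22180 genes fell. Ccna2, cyclin A2, stood at 9.81, 10.52 and 10.45 in Mock and at 6.54, 6.54 and 7.37 in Ad-Epas1, 10.9-fold lower (limma adjusted p = 0.0014). Mock 1 was the lowest Mock array for Ccna2, as it was for Ccnd1 and Ccnd2. Cdk1, the mitotic kinase, fell 4.23-fold (0.0037), Rrm2, a subunit of ribonucleotide reductase, 3.55-fold (0.0058) and Mcm5, part of the helicase that opens DNA for copying, 2.99-fold (4.0e-04). Pcna, the replication clamp and also a p53 target, differed by 0.22 (adjusted p = 0.25) and was named after its value was seen.

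**Figure D4:**
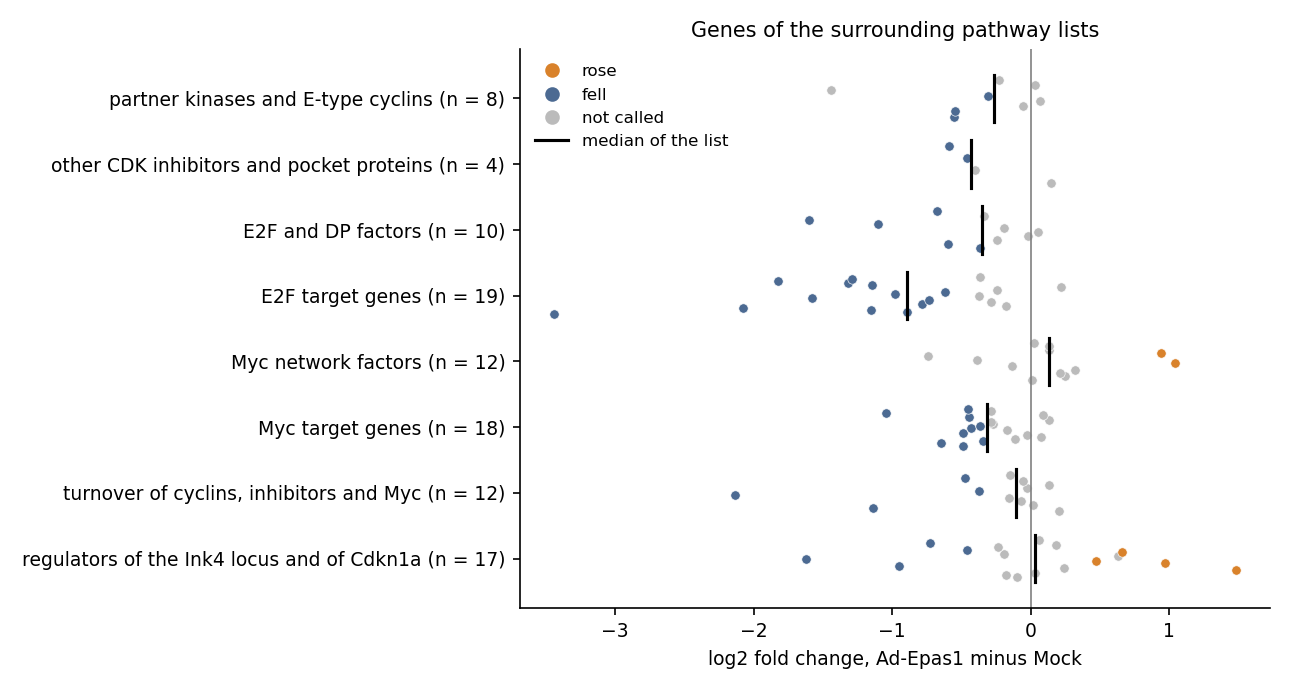
The log2 fold change (Ad-Epas1 minus Mock) of every measured gene in 8 lists around the 10 genes, orange for called rises, blue for called falls and grey for genes not called, with the median of each list as a black line. The E2F target genes have the lowest median, -0.89, and the called genes of the Myc network lie above 0.

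Of 12 measured partners, antagonists and relatives of Myc, 2 rose, none fell and 10 did not pass (median 0.13). That count is near the 16.3% called over all genes and is no result about the list. Mxd1 and Mxi1, which compete with Myc for its partner Max, rose by 1.04 (limma adjusted p = 0.0079) and 0.94 (0.013). Mxd1 stood at 9.05, 8.91 and 8.92 in Mock and at 10.25, 10.11 and 9.65 in Ad-Epas1, with no overlap. Mxi1 was no longer called when Mock 2, Mock 3 or Ad-Epas1 2 was left out, with adjusted p-values up to 0.064, which left 1 rise. Without Ad-Epas1 3, 5 members rose and 1 fell, where 24.3% of all genes were called. Without Mock 1, 1 member of the list fell. The fallen member without Ad-Epas1 3 was Mxd4, chosen for naming after its value was seen, at 8.36 and 8.39 on Ad-Epas1 1 and 2 and 9.26 on Ad-Epas1 3, against 9.39 to 9.44 in Mock. Max, named likewise, differed by 0.01 (adjusted p = 0.93).

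Of 18 measured Myc targets, 9 were called lower, against 9.75% of all genes, and none higher (median -0.32). The fit on genes above the median level had 10 of the 18 as falls, against 2180 of 11090 genes. Srm, spermidine synthase, fell by 1.05 (limma adjusted p = 0.015), Cad, which starts pyrimidine synthesis, by 0.64 (0.049), and Bop1, a factor of ribosome assembly, and Hspd1, a mitochondrial chaperone, each by 0.49 (0.012 and 0.013). Srm stood at 11.02, 11.08 and 11.06 in Mock and at 9.62, 9.97 and 10.42 in Ad-Epas1, in the same order of Ad-Epas1 arrays as Ccnd1. The count depended on the arrays: 5 fell without Mock 1, 2 without Mock 2, 1 without Mock 3, 4 without Ad-Epas1 1 and 3 without Ad-Epas1 2. Falls over all genes went from 2162 to 1737, 762, 763, 1352 and 925 in these fits, in the same order. Srm did not pass without Mock 2, Mock 3 or Ad-Epas1 2 (adjusted p up to 0.067), Bop1 without Ad-Epas1 2 (0.052) and Hspd1 without Mock 3 (0.062). Cad did not pass when any 1 array other than Ad-Epas1 3 was left out (up to 0.16), nor under either scaling alternative. Odc1, a classical Myc target, differed by 0.13 (adjusted p = 0.29) and was named after its value was seen.

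Genes of protein turnover in this pathway fell in part. Of 12, 4 fell, against 9.75% of all genes, none rose and 8 did not pass (median -0.11). With only genes above the median level, 4 of the 12 fell, against 2180 of 11090 genes. Dtl, which guides p21 to degradation in S phase, fell by 2.13 (limma adjusted p = 0.0040). Skp2 and Cks1b, which together mark p27 for degradation, fell by 0.47 (0.016) and 1.14 (0.0016), and Fbxo31, which targets cyclin D1, fell by 0.37 (0.024). Dtl and Cks1b kept their calls with any 1 array left out (adjusted p up to 0.026 and 0.015). Skp2 lost its call when Mock 2 or 3, or Ad-Epas1 1 or 2, was left out, which left 2 falls, and Fbxo31 lost it in these cases, without Mock 1 and with another quantile step.

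Regulators of the Ink4 locus and of Cdkn1a moved both ways. Of 17 measured, 4 rose, 4 fell and 9 did not pass (median 0.03), where 6.57% of all genes were called higher and 9.75% lower. The fit on genes above the median level held 15 of them, and 4 rose and 4 fell. In that fit 1378 of 11090 genes rose and 2180 fell. Ets1, an activator of p16, rose by 1.48 (limma adjusted p = 7.8e-04), and Foxo1, an activator of Cdkn1b, rose by 0.97 (9.3e-04). Id1, an antagonist of Ets factors at p16, fell by 1.62 (0.0054). Ezh2, the Polycomb methyltransferase that represses the locus and is itself an E2F target, fell by 0.95 (0.0028). These 4 kept their calls with any 1 array left out. The count of falls was 2 when Mock 2 or 3, or Ad-Epas1 1 or 2, was left out, and 2 with another quantile step. Without Ad-Epas1 3, 6 fell and 4 rose, where 24.3% of all genes were called.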

How the data were processed

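Total RNA of 6 samples was measured on Affymetrix whole-transcript arrays. Per the submitters' processing notes, the deposited log2 values, 1 per probe set, came from RMA, and the tool named is Affymetrix Expression Console 1.3.1. Quantile normalization hides a change shared by most genes, and probe summaries compress large changes. No genome build is given in the sources used. No column belonged to another sample (0 columns).

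Of 41345 probe sets, 23521 had 1 symbol, 1814 several and 16010 none. The probe set with the highest mean stood for each of 22180 genes, with no filter on level. The groups were compared in limma 3.58.1 (lmFit, eBayes, two-sided) in R 4.3.3, tested on simulated data. Groups came from the sample titles. SE is the moderated standard error. The 10 genes, the 8 pathway lists and the 5 marker lists were chosen with earlier results of these data known. Ccne2, Fbl, Mrto4, Trp53 and Lck, which were listed but had no probe set of their own, are not analysed here. Named beside the 10 genes were up to 4 called genes with the largest change per pathway list, the direct partners whatever their p, and the 5 genes most like Ccnd1 and Cdkn1a. Within-array differences were tested by exact permutation over 5 pairs. The number of arrays limits the precision.

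Alternatives were leaving out arrays, a replicate block, other scalings, a filter on level, another variance prior, array weights and other uses of probe sets.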

Additional observations from a re-analysis of the deposited data

How the results depend on the processing

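No alternative turned the direction of any of the 10 genes, and Ccnd1 and Ccnd2 were called under all 15. Of the others, Rb1 was called under none. Cdkn2a gained a call without Ad-Epas1 3, among genes above the median level and with array weights, Cdkn2b with array weights, and Cdkn2c with array weights and with both Mock 1 and Ad-Epas1 3 left out. With 1 array left out, the called genes of the 10 ran from 2 to 7, falls from 2 to 5 and rises from 0 to 2. Over all genes the calls ran from 1181 to 5390, rises from 418 to 2290 and falls from 762 to 3100. With both arrays left out 6000 genes were called (2621 rose, 3379 fell), and with array weights 7791 (3760 rose, 4031 fell), against 3620 (1458 rose, 2162 fell). Another quantile step gave 1913 rises and 1731 falls, and 2 falls among the 10. Array weights gave 7 falls among the 10. A fit on fewer arrays has fewer degrees of freedom, and the cause of each lost call was not tested.

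Replicate numbers were shared between groups, but same-numbered arrays did not all deviate together from their group means (r = 0.34, -0.19 and 0.21). For replicates 1 and 3, but not 2, the Mock array correlated best with the Ad-Epas1 array of its own number. Deviations from means of 3 arrays are not independent, so these values cannot decide whether the numbers pair the arrays. With the replicate block 2 of the 10 fell, with Ccnd3 (adjusted p = 0.10) and Myc (0.059) not passing, and 3108 genes were called. The changes between pairs of related genes, with 1 array left out, ran from -1.78 to -1.18 for Ccnd1 minus Ccnd2, -2.17 to -1.72 for Ccnd1 minus Ccnd3, -0.58 to -0.39 for Ccnd2 minus Ccnd3, -0.27 to -0.07 for Cdkn1a minus Cdkn1b and 0.01 to 0.19 for Cdkn2a minus Cdkn2b.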

Other observations

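The genes whose levels over the 6 arrays were most like those of Ccnd1, by Pearson's r with no test, were Rcan2 (0.9996), P4ha3 (0.9991), Mmp16 (0.9989), Leprot (0.9987) and Car5b (0.9987). Rcan2 encodes an inhibitor of calcineurin, P4ha3 a collagen prolyl hydroxylase, Mmp16 a membrane-bound matrix protease and Car5b a mitochondrial carbonic anhydrase. All 5 fell, with log2 fold changes of -2.43 for Mmp16, -2.37 for Rcan2, -1.297 for P4ha3, -1.29 for Car5b and -0.33 for Leprot (limma adjusted p from 0.0037 to 0.022). Leprot was no longer called when Mock 2 or 3, or Ad-Epas1 1 or 2, was left out, with adjusted p-values up to 0.094. The coefficient includes the gap between the groups, and 158 genes had an r over 0.99 with Ccnd1.

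Most like Cdkn1a were Tapbpl (0.9997), Rab31 (0.9994), Shoc1 (0.9994), Zbtb21 (0.9984) and Lrig1 (0.9975), with 41 genes over 0.99. Tapbpl encodes a peptide-loading chaperone of MHC class I and Lrig1 a negative regulator of growth factor receptors. Lrig1 rose by 0.99 (limma adjusted p = 0.0041), Zbtb21 by 0.48, Rab31 by 0.41 and Tapbpl by 0.30, the last 3 losing their calls without Mock 2 or Mock 3 (adjusted p up to 0.12). Rab31 also lost its call without Ad-Epas1 2, and Tapbpl without Ad-Epas1 1 or 2 and with the replicate number as a block. Shoc1 lay at 5.06 in Mock and 5.30 in Ad-Epas1, within the range of unexpressed genes, and did not pass (0.051).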
